A study of Canis lupus familiaris with 25 samples.

Results

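The interleukin 1 family and its receptors were followed through 10 genes of a canine tumor count table of 24532 genes. The 10 genes were taken by name, with earlier results of these data known. They were the ligands IL1A, IL1B, IL18 and IL33, the receptor antagonist IL1RN, and the receptor genes IL1R1, IL1R2, IL1RAP, IL18R1 and IL1RL1. All 10 had a row in the table. In the RefSeq gene table of the dog assembly UU_Cfam_GSD_1.0, which is not the build used for counting and was read for gene order alone, IL18R1, IL1RL1, IL1RL2, IL1R1 and IL1R2 followed each other on chromosome 10. IL1A and IL1B were neighbors on chromosome 17, and IL1RN lay further along the same cluster.

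Interleukin 1 alpha and interleukin 1 beta both bind the receptor IL1R1, which then recruits the accessory protein IL1RAP and signals through MYD88 and the IRAK kinases to the transcription factor NF-kappa-B. The system has several brakes: IL1RN occupies IL1R1 without signaling, and IL1R2 binds the ligands but lacks the intracellular signaling domain, so that it acts as a decoy receptor. IL18 and IL33 are related cytokines with receptors of their own, IL18R1 and IL1RL1 (also known as ST2), and IL1RL1 shares the accessory protein IL1RAP. Interleukin 1 alpha and IL33 are stored in epithelial and stromal cells and released on damage, whereas interleukin 1 beta and IL18 are made as precursors that are cut by inflammasome proteases.

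The samples were archival formalin-fixed, paraffin-embedded (FFPE) tumors from dogs, sequenced as total RNA with the QuantSeq 3′ method, which reads the 3′ end of each transcript. The 10 hepatoid gland adenomas (HGA), benign tumors of the modified sebaceous glands around the anus, came from dogs aged 8 to 14 years. The 11 primary apocrine gland anal sac adenocarcinomas (AGASAC), malignant tumors of the anal sac glands, came from dogs aged 8 to 12.5 years, and 4 sublumbal lymph node metastases came from the dogs of primary AGASAC 1 to 4, aged 8 to 10 years. The dogs were of many breeds, with 5 females and 5 males in the HGA group and 5 females and 6 males in the primary AGASAC group, and 6 of the 10 HGA dogs but 2 of the 11 primary AGASAC dogs were not neutered. No treatment is given, and gland of origin and malignancy cannot be told apart between HGA and AGASAC. The authors removed tissue next to the tumors, aiming at largely uniform tumor tissue, and used whole cross sections. Each value is therefore an average over the tumor, stromal and immune cells left in the section. Fewer cells of a type cannot be told apart from less RNA per cell.

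The libraries held 1562347 to 6389555 counts in HGA, 2581453 to 4218340 in primary AGASAC and 2857541 to 3289546 in metastases. At these depths 3 counts, the limit that a count of 0 allows, equaled 0.470 to 1.92 CPM (TMM-scaled counts in relation to library size, the scale of all levels given here). The epithelial markers followed the tumor labels. The summed level of 6 squamous and sebaceous markers (among them KRT5, KRT14 and TP63) ranged from 4612 to 15541 CPM in HGA and from 0 to 30.5 CPM in primary AGASAC, and 6 of 6 were called higher in HGA. Of 6 luminal gland markers, 5 were called lower in HGA, with sums of 289 to 640 CPM against 4974 to 9395 CPM. Most of the HGA sum was EPCAM, at 289 to 629 CPM, while KRT8 and PIP had a median of 0 CPM in HGA.

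The first comparison asked how the family differed between the benign and the malignant gland tumor. Of the 10 genes, 6 had enough counts for the fit over all genes, and 2 of these were called, both higher in HGA: the decoy receptor IL1R2 and the accessory protein IL1RAP. A call required an adjusted p of at most 0.05 in the quasi-likelihood test of edgeR, adjusted after Benjamini-Yekutieli over all genes tested, and a log2 fold change (log2FC, HGA relative to AGASAC) of at least 1 or at most −1. Over all 12070 genes tested, 25.1% were called, 12.6% higher and 12.5% lower in HGA, and a count of 2 of 6 is to be read against that background. The median difference in mean log2(CPM + 1) was 0.74 over the 10 genes and −0.04 over all 24532 genes, and the mean was higher in HGA for 7 of the 10 genes.

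**Figure D1:**
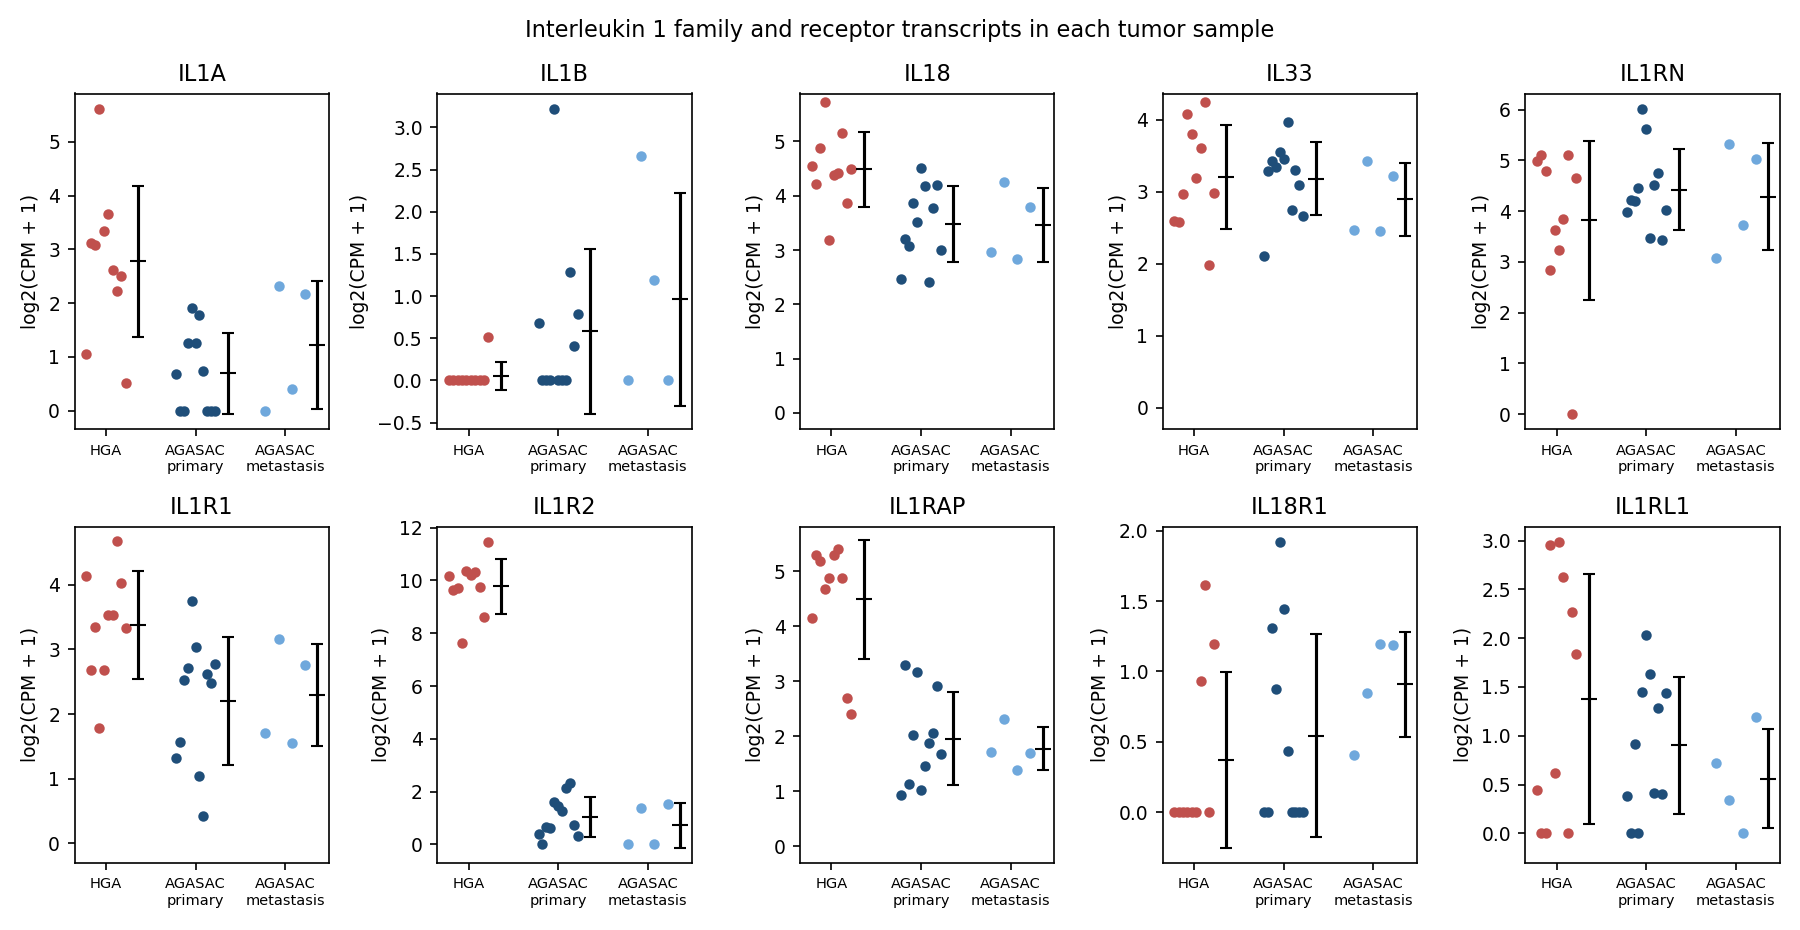
Each panel shows 1 gene, with the level of every sample as log2(CPM + 1) on the vertical axis (own scale per panel) for 10 HGA, 11 primary AGASAC and 4 AGASAC metastases. Black bars are the mean ± SD; IL1R2 is the panel in which all HGA lie above all AGASAC, from 199 CPM upwards against at most 4.01 CPM.

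IL1R2 set the HGA apart from every AGASAC. Its level in HGA was 199 CPM at the lowest, 994 at the median and 2788 at the highest, with 1073 ± 704 CPM (SD, n = 10). In primary AGASAC it was 0 CPM at the lowest, 0.653 at the median and 4.01 at the highest, with 1.36 ± 1.33 CPM (SD, n = 11). The groups did not overlap, and the raw counts behind these levels were 324 to 6482 per HGA and 0 to 14 per primary AGASAC. A lack of overlap with HGA higher was seen for 4.37% of tested genes. The log2FC was 9.62 (standard error 0.59), with an adjusted p of 1.05e-10 in the edgeR test. HGA 10, from a neutered male, had the highest level, and HGA 4 had the lowest; since no HGA fell into the range of the AGASAC, the separation also held among the neutered dogs alone.

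IL1RAP, the accessory chain without which IL1R1 does not signal, was higher in HGA as well. It ranged from 4.30 to 41.3 CPM in HGA with a median of 28.5, and from 0.904 to 8.82 CPM in primary AGASAC with a median of 2.68. The means were 26.1 ± 13.4 CPM (SD, n = 10) and 3.57 ± 2.85 CPM (SD, n = 11). The groups overlapped through HGA 9 and HGA 10, with 5.52 and 4.30 CPM, while the other 8 HGA lay above all primary AGASAC. The log2FC was 2.89 (standard error 0.45, adjusted p = 0.000121 in the edgeR test). The same HGA 10 thus held the highest IL1R2 and the lowest IL1RAP level of its group.

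IL1R1, the signaling receptor, did not pass the test. Its level was 2.46 CPM at the lowest, 9.87 at the median and 24.6 at the highest in HGA, and 0.335, 4.74 and 12.5 CPM in primary AGASAC. The ranges overlapped widely, with 3 of 10 HGA above all primary AGASAC, and the log2FC was 1.28 (standard error 0.45, edgeR adjusted p = 0.229). With Benjamini-Hochberg in place of Benjamini-Yekutieli adjustment, under which 30.9% of genes were called, IL1R1 and IL18 were called too, with adjusted p of 0.0229 and 0.00657 (edgeR).

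Because decoy and signaling receptor differed to such unequal extents, the number of IL1R2 counts per IL1R1 count was taken within each sample. This ratio is of 3′ counts, which are not divided by transcript length, and serves only to compare groups. It was 25.3 at the lowest, 102 at the median and 309 at the highest in HGA. In primary AGASAC it was 0 at the lowest, 0.167 at the median and 10 at the highest, where primary AGASAC 8 held the highest value on a single IL1R1 count. The 4 metastases had at most 0.333. The HGA therefore held more IL1R2 than IL1R1 counts in every sample, and none of the AGASAC reached the HGA range. The ratio was taken after these differences were seen, so it mostly restates the IL1R2 separation and is not a further result.

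**Figure D2:**
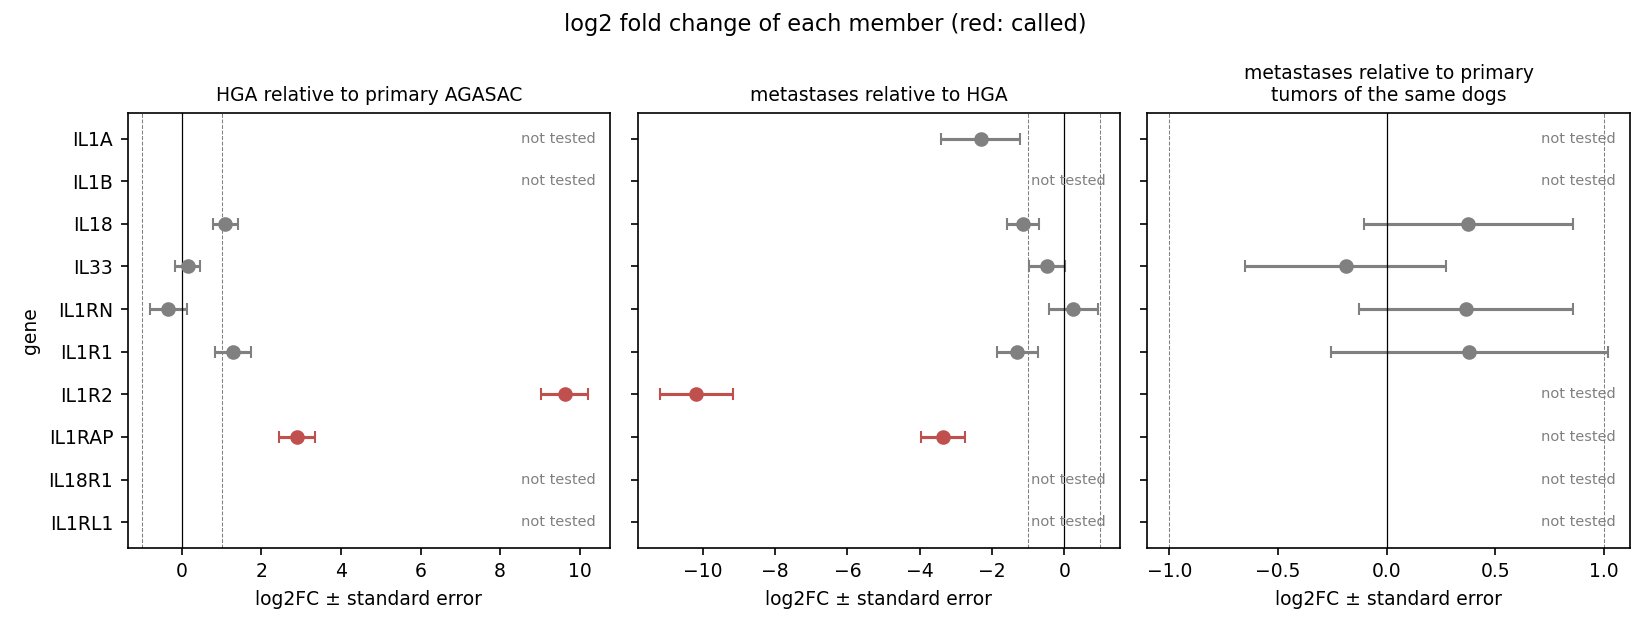
Points show the log2FC of each tested gene with its standard error in the 3 comparisons (the right axis is narrower), dashed lines mark −1 and 1, and red points were called. IL1R2 and IL1RAP stand out at 9.62 and 2.89 in HGA relative to primary AGASAC and at −10.18 and −3.36 in metastases relative to HGA.

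Among the ligands, IL1A reached the minimum count in too few samples for the filtered fit. Its level was 0.430 CPM at the lowest, 6.29 at the median and 48.0 at the highest in HGA. In primary AGASAC it was 0, 0.603 and 2.78 CPM, and 5 of 11 samples had no count. In 8 of 10 HGA the level was above all primary AGASAC, and the difference in mean log2(CPM + 1) was 2.08 (two-sided permutation test over samples, p = 0.00056, 4 such tests made in this comparison, raw p). Without the filter on low counts, edgeR gave IL1A a log2FC of 3.47 (standard error 0.81, adjusted p = 0.0163), where 16.2% of genes were called. HGA 4 held 78 of the counts, and HGA 1 and HGA 10 were the HGA that overlapped with AGASAC, at 1.09 and 0.430 CPM.

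IL1B was not detected or low in most tumors, with 2 samples clearly above the detection limit, primary AGASAC 5 at 8.33 CPM and metastasis 2 at 5.31 CPM. A single count was found over all 10 HGA, in HGA 10. Over the 11 primary AGASAC there were 35 counts, of which 24 were in primary AGASAC 5, and 6 of the 11 samples had none. The ratio of pooled IL1B counts per total counts, primary AGASAC to HGA, was 33.7 (exact 95% interval 5.66 to 1368, counting error only), and 11.5 (1.67 to 495) without primary AGASAC 5. Over samples the difference in mean log2(CPM + 1), HGA minus primary, was −0.53 and did not pass (permutation test, p = 0.0741). Primary AGASAC 5 also held the highest summed level of 8 neutrophil markers among the primary tumors, 44.8 CPM against 5.74 to 37.0 CPM in the others. Metastasis 2 had a sum of 44.6 CPM. The highest sums among all samples, 100 CPM in HGA 4 and 82.7 CPM in metastasis 4, went with an IL1B level of 0 CPM. Neutrophil markers at a median of 0 CPM in both HGA and primary AGASAC were CSF3R, CXCR1 and MPO, and the part of these cells in the IL1B level was not tested.

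IL1RN, the natural antagonist, was measured in nearly all tumors at similar ranges. It reached 0, 18.7 and 33.7 CPM (lowest, median, highest) in HGA and 9.79, 17.6 and 63.9 CPM in primary AGASAC. HGA 9 was listed at 0, and primary AGASAC 5 was the highest. The log2FC was −0.34 (standard error 0.47, edgeR adjusted p = 1), so that no difference in either direction was detected.

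IL18, a cytokine of epithelia and macrophages, ranged from 8.09 to 51.6 CPM in HGA with a median of 20.9, and from 4.36 to 21.7 CPM in primary AGASAC with a median of 10.4. The log2FC was 1.1 (standard error 0.32), and the edgeR adjusted p of 0.0656 missed the threshold, although 4 of 10 HGA lay above all primary AGASAC. Leaving out HGA 5, the lowest HGA, or primary AGASAC 6, the highest primary tumor, brought the adjusted p (edgeR) to 0.0284 and 0.0292. Its receptor chain IL18R1 had 0 to 2.05 CPM in HGA and 0 to 2.78 CPM in primary AGASAC, with a median of 0 in both (permutation test, p = 0.581). Whether IL18 was called thus depended on single tumors, and its receptor was too low for a comparison at this depth.

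IL33, an alarmin of epithelial and endothelial nuclei, had 2.97 to 18.1 CPM in HGA with a median of 7.52, and 3.32 to 14.7 CPM in primary AGASAC with a median of 8.89. The log2FC was 0.15 (standard error 0.32, edgeR adjusted p = 1). Its receptor IL1RL1 had 0 to 6.94 CPM in HGA and 0 to 3.1 CPM in primary AGASAC (permutation test, p = 0.301). In 4 of 10 HGA the IL1RL1 level was above all primary AGASAC and in 3 it was 0, so the HGA were spread over the whole range of this gene. The summed level of 6 endothelial markers was 205 to 572 CPM in HGA and 49.6 to 241 CPM in primary AGASAC, and its part in either level was not tested.

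RNA extraction batches and a series in which the sequencing files were named are listed with the study. Batch 7 held HGA 3 and primary AGASAC 8 and was not fitted by itself. Batches 5, 6 and 8 also held HGA and primary AGASAC together (3 and 3, 3 and 2, 2 and 3 tumors). Within these, the log2FC of IL1R2 was 7.85, 9.91 and 10.59 (edgeR adjusted p = 0.0227, 0.00399 and 0.0242), and that of IL1RAP was 3.23, 3.75 and 2.78 (edgeR adjusted p = 0.491, 0.106 and 0.526). IL1R2 was therefore called within each of batches 5, 6 and 8. IL1RAP kept its size in these batches of 5 or 6 tumors without passing. With extraction batch as a covariate over the 21 primary tumors, the log2FC was 9.07 for IL1R2 and 3.28 for IL1RAP. Both kept their calls in this fit (edgeR adjusted p = 8.88e-09 and 8.02e-05). The naming series was nearly the same split as the tumors, with 9 HGA and 3 primary AGASAC in series A, 1 HGA and 7 primary AGASAC in series B and 1 primary AGASAC not listed. With it as a covariate, IL1R2 had a log2FC of 10.87 (edgeR adjusted p = 4.45e-11), and IL1RAP had 2.42 and lost its call (edgeR adjusted p = 0.145). Within series A alone the log2FC was 11.32 for IL1R2 (edgeR adjusted p = 5.28e-06) and 3.00 for IL1RAP (edgeR adjusted p = 0.0499).

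**Figure D3:**
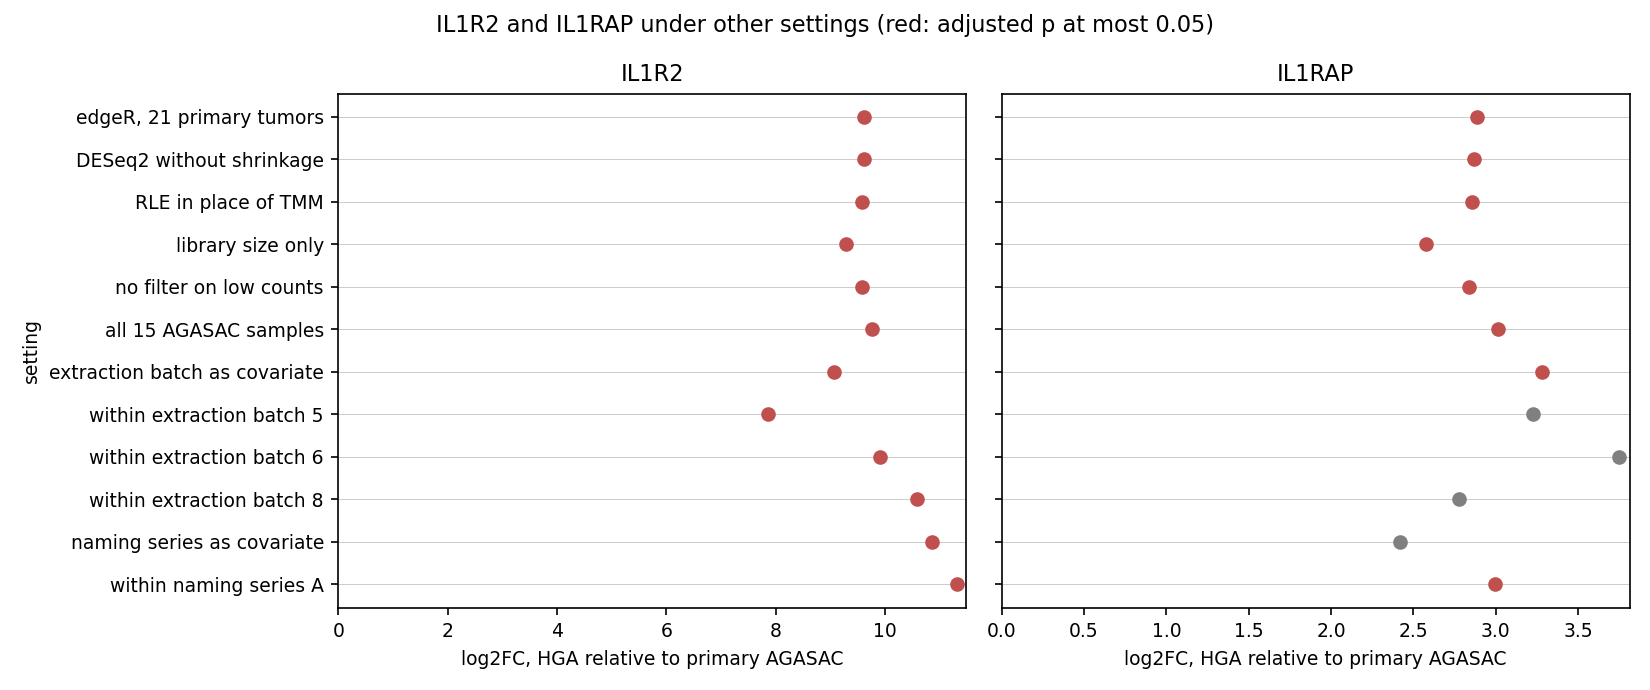
Points show the log2FC of IL1R2 (left) and IL1RAP (right), HGA relative to primary AGASAC, on axes from 0, for the fit on 21 primary tumors and 11 other settings; red points had an adjusted p of at most 0.05. IL1R2 stays between 7.85 and 11.32 and red throughout, and IL1RAP stays between 2.42 and 3.75 with 4 grey points.

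The metastases were then set beside the HGA, which are the same 10 samples as above, so both comparisons share them. Of the 10 genes, 7 were tested, and IL1R2 and IL1RAP were called lower in metastases. Over all 13195 genes tested, 16.1% were called, 7.69% higher and 8.4% lower in metastases. IL1R2 had 0, 1.59, 0 and 1.92 CPM in metastases 1 to 4, a log2FC of −10.18 relative to HGA (standard error 1.02, edgeR adjusted p = 1.86e-05). IL1RAP had 2.27, 3.98, 1.61 and 2.24 CPM, a log2FC of −3.36 (standard error 0.61, edgeR adjusted p = 0.005). Neither gene overlapped with the HGA, which was the case with metastases lower for 7.38% of tested genes.

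The other family members did not pass between metastases and HGA. IL1A had 0, 3.98, 0.322 and 3.51 CPM in the 4 metastases, with a log2FC of −2.30 (standard error 1.09, edgeR adjusted p = 1). IL1R1 and IL18 had log2FC of −1.30 and −1.14 (edgeR adjusted p = 0.975 and 0.605). IL1RN and IL33 were at 0.25 and −0.47, both with an edgeR adjusted p of 1. The 24 IL1B counts of the metastases lay mostly in metastasis 2, with 20, and the pooled ratio to HGA was 62.2 (exact 95% interval 10.1 to 2557, counting error only), or 14.1 (1.40 to 696) without it. For IL1B, IL18R1 and IL1RL1 the exact permutation tests gave p of 0.132, 0.19 and 0.24 (3 tests, raw p).

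The last comparison asked whether the family changed between primary tumor and lymph node metastasis of the same 4 dogs, and no call was made. In the edgeR test 0.0% of 12629 genes were called, 145 genes and 0 of the 4 tested family genes had an unadjusted p under 0.05, and DESeq2 called 5 genes (0.0229%), none of them in the family. IL18, IL1R1 and IL1RN had log2FC, metastasis relative to primary, of 0.38, 0.38 and 0.36 (standard errors 0.48, 0.64 and 0.49), and IL33 had −0.19 (standard error 0.46), with an edgeR adjusted p of 1 each. For the other 6 genes the exact permutation tests gave p of 0.343 to 0.943, where 4 against 4 samples cannot go below 0.0286. None of the tests in this paragraph paired the samples by dog. A fit with the dog as a block, given further below, covered the 4 genes of the edgeR fit and not these 6.

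**Figure D4:**
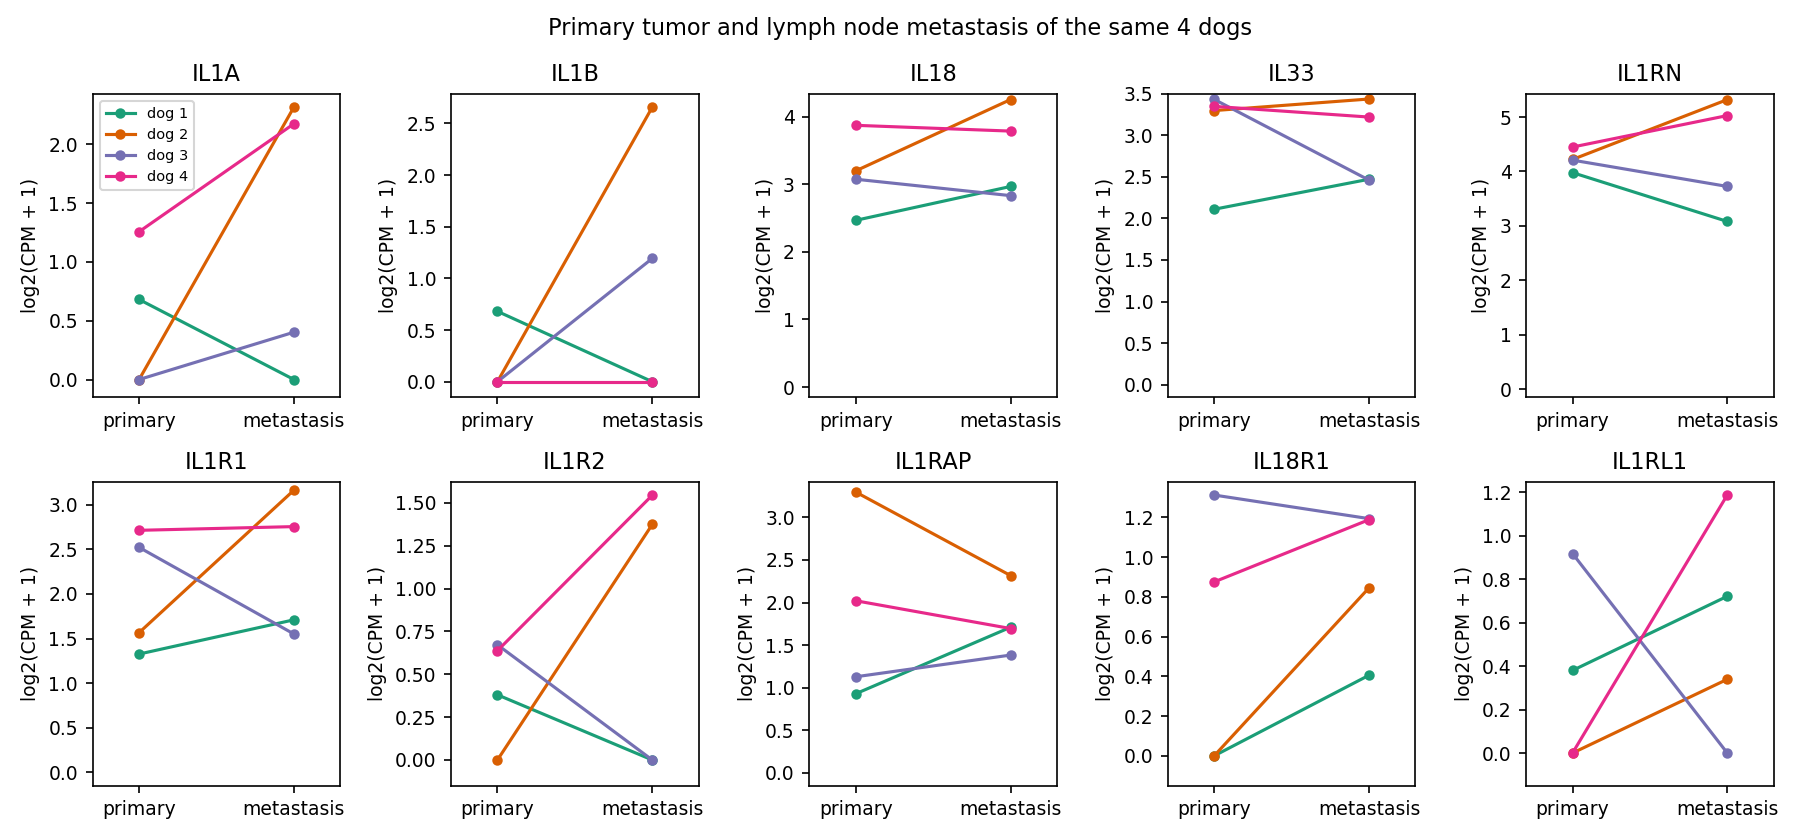
Each panel shows 1 gene and each line 1 dog, from primary tumor to lymph node metastasis, as log2(CPM + 1) on the vertical axis (own scale per panel). Lines cross or diverge in every panel; the metastasis is the higher sample for 9 of 10 genes in dog 2 and for 3 in dog 3.

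The 4 dogs did not move together. The metastasis had the higher level for 6 of the 10 genes in dog 1, 9 in dog 2, 3 in dog 3 and 6 in dog 4. In dog 2, IL1RN went from 17.6 CPM in the primary tumor to 39.0 CPM in the metastasis, IL18 from 8.17 to 18.0 CPM, and IL1R1 from 1.96 to 7.96 CPM. IL1RAP was the exception in this dog, with 8.82 CPM in the primary tumor and 3.98 CPM in the metastasis. Metastasis 2 also held the highest summed fibroblast and macrophage marker levels of the 4 metastases, 10486 CPM (at most 2482 CPM in the others) and 361 CPM. Primary tumor 2 had 5631 and 287 CPM. The neutrophil marker sum was 9.15 CPM in primary tumor 2 and 44.6 CPM in metastasis 2, and it was also higher in the metastasis in dog 3 and dog 4. The part of these cells in the values of dog 2 was not tested. T cell marker sums, which a lymph node would add to, were higher in the metastasis in all 4 dogs, with 39.9, 44.3, 63.0 and 44.4 CPM against 25.0, 28.4, 21.1 and 41.4 CPM in primary tumors 1 to 4. B cell marker sums were also higher in all 4 dogs, with 41.9, 21.2, 27.0 and 29.1 CPM against 41.3, 18.0, 13.6 and 14.7 CPM. None of the 6 T cell and 3 B cell markers tested was called in this comparison, and the part of these cells in the family's values was not tested.

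The other genes of the pathway were described by lists. Among the 9 further family genes that were found (IL36A, IL36B and IL1RAPL2 were not found by symbol), 2 were tested and none was called between HGA and primary AGASAC. IL18BP, the soluble inhibitor of IL18, had a log2FC of −1.61 (edgeR adjusted p = 0.194). Of the inflammasome and processing genes, 9 were found, 4 were tested and 2 were called, beside 25.1% of all genes tested: CASP8, a protease that can cut interleukin 1 beta, was higher in HGA (log2FC 2.03, edgeR adjusted p = 0.00436), and GSDMD, the pore protein through which mature interleukin 1 leaves the cell, was lower (log2FC −1.50, edgeR adjusted p = 0.00015). CASP1 was not found by symbol. CASP8 was 6.47 to 20.3 CPM in HGA and 0 to 6.25 CPM in primary AGASAC, and GSDMD was 16.9 ± 6.56 CPM (SD, n = 10) and 48.8 ± 17.1 CPM (SD, n = 11). Neither gene overlapped between the groups, which was the case for 4.37% of tested genes with HGA higher, as for CASP8, and for 4.76% with HGA lower, as for GSDMD.

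Of the 17 receptor signaling genes, 16 were tested and 2 were called, a smaller share than the 25.1% of all genes tested. NFKBIA, the inhibitor of NF-kappa-B that NF-kappa-B itself induces, was higher in HGA without overlap (4.37% of tested genes), with 437 to 1833 CPM against 93.3 to 428 CPM (log2FC 2.11, edgeR adjusted p = 7.83e-06). TAB3, an adaptor of the kinase MAP3K7, was lower (log2FC −1.51, edgeR adjusted p = 0.0386), but lost its call with extraction batch as a covariate (adjusted p = 0.209 in the same test) and in 13 of 21 fits that left out 1 tumor. RELA and CHUK passed the adjusted p alone, with log2FC of −0.96 and 0.97. The median log2FC of the 16 genes was 0.17, beside −0.03 over all genes tested, so the signaling genes as a list lay near the whole.

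Of 13 genes that interleukin 1 is known to induce, 6 were tested and 2 were called, in opposite directions, beside 25.1% of all genes tested. SOD2, the mitochondrial superoxide dismutase, was higher in HGA without overlap (4.37% of tested genes), with 294 to 554 CPM against 90.2 to 185 CPM (log2FC 1.75, edgeR adjusted p = 6.87e-08). CCL2, a chemokine for monocytes, was lower in HGA, with 6.27 to 34.1 CPM against 12.4 to 150 CPM (log2FC −1.74, edgeR adjusted p = 0.0128). With the naming series as a covariate, the log2FC of CCL2 was −0.50 (edgeR adjusted p = 1) and that of CASP8 was 1.91 (edgeR adjusted p = 0.197), and both lost their calls. Within batches 5, 6 and 8 none of the 6 called pathway genes passed, each with a log2FC of the same sign, and within series A alone TAB3 and SOD2 kept their calls. In metastases relative to HGA the called genes of these lists were GSDMD (1.56), TAB3 (2.06) and CCL2 (2.23), all higher, and SOD2 (−1.80), lower, as log2FC. CCL2 lost this call without metastasis 2 or metastasis 4 (edgeR adjusted p = 0.0704 and 0.105), and TAB3 without metastasis 1 (edgeR adjusted p = 0.195). Between metastases and primary tumors none was called.

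**Figure D5:**
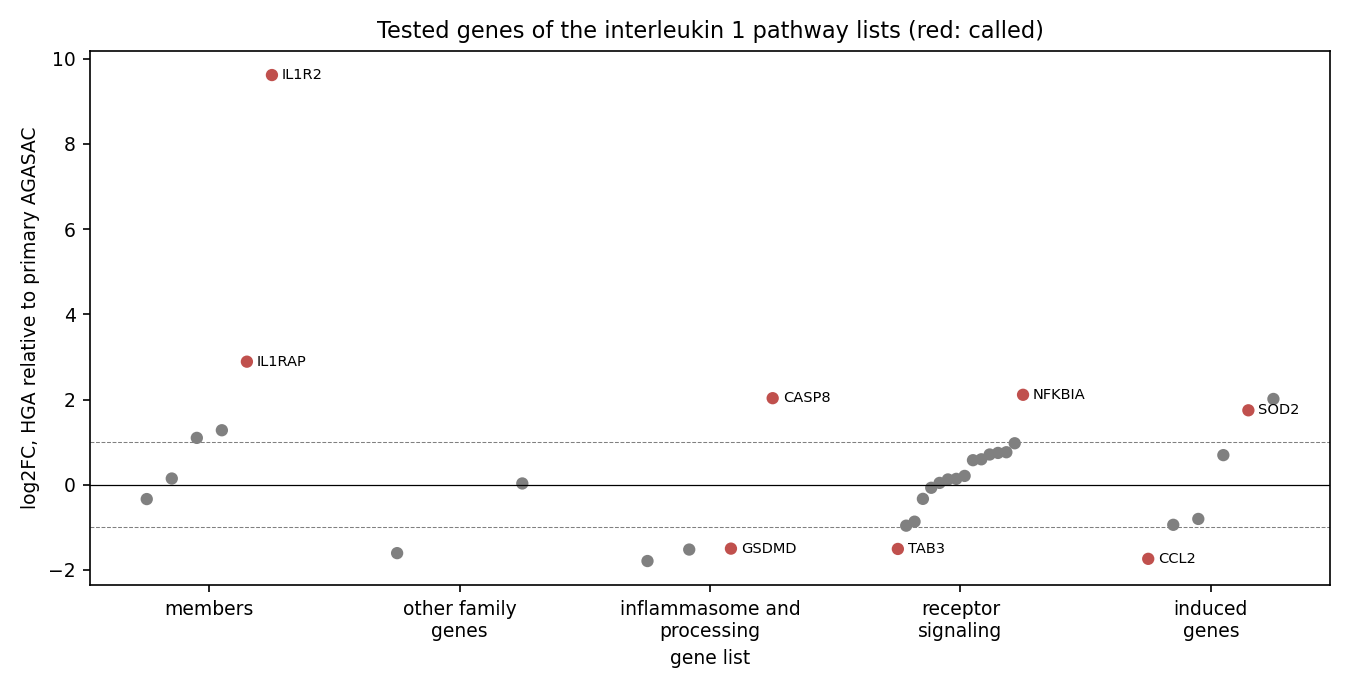
Points show the log2FC of every tested gene, HGA relative to primary AGASAC, in the family and 4 pathway lists; dashed lines mark −1 and 1, and red points were called and are named. Each of the 3 lists with called genes beside the family holds 1 gene in each direction, whereas IL1R2 lies far above all others at 9.62.

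The genes whose pattern over all 25 samples was most like that of the 2 called receptors were listed as a description, by Pearson correlation of log2(CPM + 1) among 10812 genes. For IL1R2 these were DSG1, a desmosomal cadherin of stratified epithelium (r = 0.982), TNS4 (r = 0.979) and TRIM29 (r = 0.975), and 215 genes reached 0.9. Within the 10 HGA the same 3 genes had r of 0.322, −0.0727 and −0.171 with IL1R2, so the likeness lay in the step between tumor types. For IL1RAP they were CCL21 (r = 0.909), ALDH6A1 (r = 0.904) and POLR2E (r = 0.899), with r of 0.708, 0.771 and 0.797 within HGA. The points share libraries, depth and tumor group, and no test was made.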

How the data were processed

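The deposited table held raw gene counts and normalized counts of the 25 tumor samples. Per the labels and the study's methods, the authors trimmed QuantSeq 3′ FWD reads with Cutadapt, aligned them to CanFam3.1 with STAR and counted them with featureCounts in 2 rounds, the second with genes extended by 2 kb at the 3′ end. Multi-mapping reads were spread evenly, and DESeq2 was run. Tool versions are not given in the sources used here. The deposited normalized signal columns equaled the counts over 1 factor per sample in 100% of values above 0 and were not used further. The authors' own comparison columns (fold changes, p-values) were not used.

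Raw counts were analyzed in R 4.3.3 with edgeR 4.0.16 (filterByExpr with a minimum count of 10 and a total of 15, TMM, glmQLFTest, Benjamini-Yekutieli over all tested genes, two-sided), and with DESeq2 1.42.0 as an alternative. CPM values are TMM-scaled over all 25 samples. Genes that failed the filter were compared by two-sided permutation tests of mean log2(CPM + 1), exact where a group had under 10 samples and with 100000 resamples otherwise, with raw p. Intervals and floors cover counting error only; reads carry no molecular identifiers. The fits were tested on simulated counts.

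All 10 family genes are named; other genes are those called in the fixed pathway lists, at most 3 per direction, and the 3 most like each called receptor. IL18BP, RELA and CHUK, the neutrophil markers S100A8, CXCR2 and MMP9, and the luminal gland markers EPCAM, KRT8 and PIP were named after their values were seen. The genes and lists were chosen with earlier results of these data known. Each HGA and primary AGASAC is 1 dog; metastases share the dogs of primary AGASAC 1 to 4, and their deviations from the group means correlated with those of their own primary tumors (0.767, 0.568, 0.615 and 0.466). No 2 samples of a group agreed within sampling noise.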

Additional observations from a re-analysis of the deposited data

Results flagged for a closer look

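Of 20 tests of whether 1 sample stands apart from its group, made for the 10 genes in HGA and in metastases, 3 stood out. The primary AGASAC were not tested in this way. Of the 3, 2 (IL1R2 and IL1A) can be set against the 1 in 20 groups that chance gives. That rate holds for normally distributed values, and the tests were made on CPM without a logarithm. IL1R2 in HGA 10 was at 2788 CPM (6482 counts), and the next HGA was at 1296 CPM. IL1A in HGA 4 was at 48.0 CPM (78 counts), and the next was at 11.6 CPM. HGA 4 also had the highest neutrophil marker sum of the HGA, 100 CPM against 4.69 to 62.2 CPM in the others. S100A8 alone made up 79.9 CPM of this sum. CXCR2 was highest in HGA 4 as well, at 6.15 CPM. The other markers of the list were highest in other HGA, and MMP9 was at 0 CPM in HGA 4. The part of these cells in the IL1A level was not tested. IL1B in HGA 10 was at 0.430 CPM, which is 1 count, and the other HGA were at 0; where all others are at 0 any single count stands apart, so this one is not to be set against chance.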

How the results depend on the processing

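IL1R2 was called in every alternative that tested it in both comparisons with HGA. The number of family genes called between HGA and primary AGASAC (2) became 0 when 10 counts in every sample were required, because neither called gene was then tested, 4 with Benjamini-Hochberg adjustment and 4 with all 15 AGASAC samples (adding IL1A and IL18), and 1 within extraction batches 5, 6 and 8 each and with the naming series as a covariate. Leaving out 1 sample gave 2 to 3. The fit on all 15 AGASAC samples counted the primary tumor and the metastasis of dogs 1 to 4 as independent samples, which they are not. Between metastases and HGA the number (2) became 0 under the same strict filter and was 2 to 2 with 1 sample left out; it was 0 in all settings between metastases and primary tumors. Of the family genes that failed the low-count filter, those with a p of at most 0.05 between metastases and HGA numbered 0 to 1, with 1 (IL18R1, exact permutation p = 0.0336) without HGA 8. Scaling by library size alone moved the median log2FC of all genes to −0.33 (HGA relative to primary AGASAC) and 0.26 (metastases relative to HGA).

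Signs turned only for genes that were not called, and the cause was not tested. Between HGA and primary AGASAC, IL1RN had a log2FC of 0.071 with the naming series as a covariate and 0.15 within series A, IL18 had −0.091 within batch 6, and IL33 had −0.15 with library size alone, −0.31 within batch 6 and −0.018 to 0.25 with 1 sample left out. Against all 11 primary tumors, metastases had log2FC of −0.091 for IL1RN, −0.0299 for IL1R1 and −0.045 for IL18; with 1 sample left out of the same-dog comparison, IL1RN had −0.051 to 0.65, IL1R1 −0.069 to 0.72 and the log2(CPM + 1) difference of IL1RAP −0.37 to 0.42. Between metastases and HGA, IL1RN had −0.15 to 0.55 with 1 sample left out.

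With the dog as a replicate block, metastases and primary tumors gave 0 calls, with log2FC of 0.11 for IL1RN, 0.33 for IL1R1, 0.34 for IL18 and −0.17 for IL33. HGA share with AGASAC a number only; that replicate block gave 2 calls in each comparison, and IL33 had −0.0037 against primary AGASAC and IL1RN −0.24 in metastases against HGA. Depth limits IL1B, IL18R1 and IL1RL1, which had 0 counts in many libraries.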
